A study of Mus musculus with 2 samples.

Results

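The 9 genes Agtr1a, Agtr1b, Kcnk3, Kcnk9, Kcnj5, Cacna1d, Cacna1h, Atp2b3 and Clcn2 encode receptors, ion channels and a pump that regulate aldosterone secretion, and their chromatin was examined in the adrenal gland of newborn mice. They were listed by name, with earlier results of these data known and with no measured value in the rule, and in GENCODE M21 all 9 were among the 21755 protein-coding genes on chromosomes 1 to 19 and X. Accessible DNA had been mapped by DNase-seq, in which DNase I cuts open chromatin, so that clusters of cuts form peaks and short protected stretches inside peaks form footprints. There was 1 group, with 2 libraries labelled as biological replicates 1 and 2. Both came from adrenal tissue of 4-day-old females of B6CASTF1/J, a first-generation hybrid strain, and the labels name no treatment. Each sample is described as coming from 3 females, and both bear 1 common donor identifier, so how tissue was pooled is not known. Because the gland was not split into its cell types, weak accessibility in many cells and strong accessibility in few cells cannot be told apart.

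Aldosterone is made in the zona glomerulosa, the outermost zone of the adrenal cortex, and is secreted in response to angiotensin II and to a rise in plasma potassium. Potassium channels keep these cells hyperpolarised at rest. Angiotensin II, acting on its type 1 receptor through Gq proteins, closes such channels, and the depolarisation opens voltage-gated calcium channels. The calcium that enters activates calmodulin-dependent kinases and induces Cyp11b2, which encodes aldosterone synthase, and calcium pumps at the cell membrane export it again. In humans, mutations of KCNJ5, CACNA1D, CACNA1H, ATP2B3 and CLCN2 are known from aldosterone-producing tumours or inherited aldosteronism.

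The sequences that follow carry the main sites described here, read from the RefSeq assembly GRCm38.p6, the build of mm10, which is a C57BL/6J genome; the other parental allele of the hybrid was not read. The first set shows the bases just before the 5′ most transcription start site (TSS) of both angiotensin receptor genes, on the gene's strand and ending 1 base before the TSS, with the letters TATAAA in capitals. Agtr1a lies at chr13:30336381-30336440 on the plus strand and Agtr1b at chr3:20367178-20367237 on the minus strand.
Agtr1a: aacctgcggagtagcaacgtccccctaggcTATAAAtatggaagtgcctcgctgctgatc
Agtr1b: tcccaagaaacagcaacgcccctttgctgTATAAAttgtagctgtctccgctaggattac

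The second set shows 3 peaks away from promoters that were found in both libraries, each at its extent in replicate 2. Capitals mark, in the first pair, matches to the core of the element bound by REST, a repressor of neuronal genes, spelled CAGCACC and GGACAG with 2 free bases between. In the last they mark a match to the core of the element bound by CTCF, an insulator protein, spelled CCAC, AG and GGC with 1 and 2 free bases between. They lie upstream of Kcnk9 at chr15:72568641-72568800, in an intron of Cacna1h at chr17:25400561-25400740 and upstream of Kcnj5 at chr9:32350441-32350620, all printed from the minus strand.
Kcnk9 upstream: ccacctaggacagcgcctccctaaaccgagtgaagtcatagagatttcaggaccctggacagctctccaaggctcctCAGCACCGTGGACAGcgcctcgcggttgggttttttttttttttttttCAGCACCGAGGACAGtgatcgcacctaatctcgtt
Cacna1h intron: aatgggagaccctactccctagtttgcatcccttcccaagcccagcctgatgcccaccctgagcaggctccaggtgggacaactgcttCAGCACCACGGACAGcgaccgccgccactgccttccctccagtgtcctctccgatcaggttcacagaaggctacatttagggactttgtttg
Kcnj5 upstream: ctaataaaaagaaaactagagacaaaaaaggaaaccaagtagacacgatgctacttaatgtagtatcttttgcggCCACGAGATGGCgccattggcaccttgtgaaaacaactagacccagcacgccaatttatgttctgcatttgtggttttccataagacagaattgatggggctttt

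The third set shows places where protected bases coincided between the libraries without a match to the CTCF or REST letters spelled above. Only those fixed letters were searched, so variant forms of either element would have been missed. Capitals mark bases that lay in a footprint of both libraries. They are an intronic peak of Kcnk9 at chr15:72517141-72517280, one of Cacna1d at chr14:30137101-30137260, and the peak before the Cacna1h start site at chr17:25433981-25434180. The Cacna1d peak is the strongest shared one in its introns with no other gene's TSS within 1 kb. All are on the minus strand, which is the strand of these genes.
Kcnk9 intron: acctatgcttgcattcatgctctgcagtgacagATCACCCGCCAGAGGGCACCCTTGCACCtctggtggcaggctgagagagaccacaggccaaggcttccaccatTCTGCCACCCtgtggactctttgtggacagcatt
Cacna1d intron: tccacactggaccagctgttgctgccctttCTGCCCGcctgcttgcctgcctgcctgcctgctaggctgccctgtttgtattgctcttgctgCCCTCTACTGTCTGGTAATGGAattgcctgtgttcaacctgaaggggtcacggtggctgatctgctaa
Cacna1h promoter: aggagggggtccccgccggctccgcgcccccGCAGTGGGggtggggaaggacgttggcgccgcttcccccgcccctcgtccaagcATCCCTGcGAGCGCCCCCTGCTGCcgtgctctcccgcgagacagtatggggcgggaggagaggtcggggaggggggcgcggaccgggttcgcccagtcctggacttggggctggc

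Peak lists were read as deposited, with 46031 peaks in replicate 1 and 87387 in replicate 2, and each peak carries 1 signal value that is the authors' own. No source used here states the scaling of this signal or the read depth, so counting errors could not be computed and no test was made. With 2 libraries of 1 group, values are given per library. Over 34781 peaks that overlapped 1 to 1, the median ratio of replicate 2 signal to replicate 1 signal was 2.06, with 5th and 95th percentiles of 1.13 and 3.43. A higher number in replicate 2 was thus usual over the library and is not read as a trait of a gene.

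Of the 9 genes, 6 had a peak within 1 kb of an annotated TSS in both libraries, against 61.3% of all protein-coding genes, a share near that of the background. These were Agtr1a, Kcnk3, Cacna1d, Cacna1h, Atp2b3 and Clcn2. Agtr1b and Kcnk9 had a weak TSS peak in replicate 1 alone, and Kcnj5 had none in either library, as did 32.8% of all genes. By library, 8 of the 9 genes had a TSS peak in replicate 1 (62.2% of all genes) and 6 in replicate 2 (66.3%). The stricter of the deposited lists, whose peaks each hold a position with a false discovery rate below 0.001, had a TSS peak in both libraries at 5 genes, Atp2b3 being the one lost, against 54.8% of all genes. A peak at the 5′ most TSS in both libraries was present at 5 genes, Cacna1d being the one lost, against 56.8%.

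**Figure D1:**
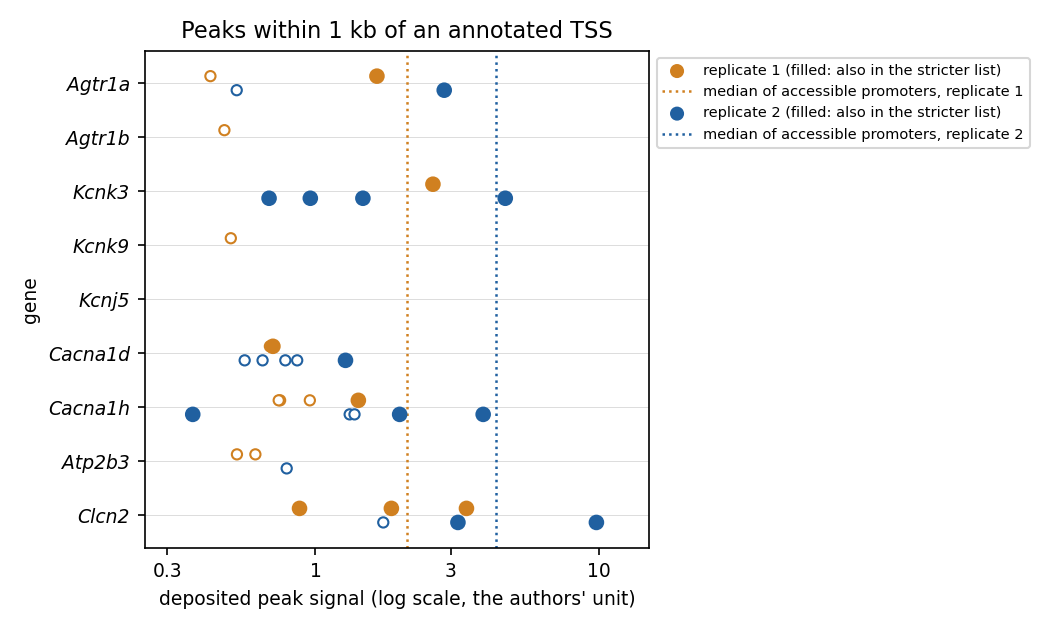
Deposited signal (log scale, the authors' unit) of every peak within 1 kb of an annotated TSS, 1 row per gene, replicate 1 in orange and replicate 2 in blue. Filled points are also in the stricter list, and dotted lines give the medians over all genes with a TSS peak in both libraries, 2.11 and 4.33. The row of Kcnj5 is empty, and in both libraries the strongest peaks of Kcnk3 and Clcn2 alone lie beyond the dotted line of their library.

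Agtr1a and Agtr1b encode the type 1 angiotensin II receptors, which rodents carry as a duplicated pair. The start site of Agtr1a was accessible in both libraries and that of Agtr1b was not. At Agtr1a the peak over the TSS at position 30336441 of chromosome 13 reached 1.65 in replicate 1 and 2.84 in replicate 2, in both stricter lists. This placed it at the 37.0 and 35.2 percentiles of the strongest TSS peaks of accessible genes. For all TSS percentiles, accessible genes are those with a TSS peak in the same library. They number 13535 in replicate 1 and 14433 in replicate 2. The lowest deposited false discovery rate at this start site was 1.04e-18 in replicate 1 and 6.55e-16 in replicate 2. The peak held 3 footprints of replicate 1 that overlapped one of replicate 2, the most of any of these genes together with Clcn2. A second, weaker peak about 0.645 kb into the gene had signals of 0.426 and 0.528 and was in neither stricter list.

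At Agtr1b, replicate 1 had a peak of 0.478 at chr3:20366944-20367141, over the TSS at position 20367124 and ending short of the 5′ most TSS at 20367177, with a lowest false discovery rate of 0.00706. Replicate 2 had no peak there, and its list of false discovery rates had no position below 0.05 within 1 kb of the start site. Both receptor genes share the letters TATAAA shown above, which start 30 bases before the TSS in Agtr1a and 31 bases before it in Agtr1b. Within 40 bases upstream of the 5′ most TSS, on the gene's strand, these letters stand in 2.81% of all protein-coding genes and in none of the other 7 genes described here. Aligned at the TSS without gaps, the 60 bases of the pair agreed at 17 positions, or 28.3%. Because TATAAA starts at 30 bases in one gene and 31 in the other, this alignment does not set those letters in register. No shifted or gapped alignment was made, so 28.3% can understate how alike the pair is here. The coding parts of the pair are similar, and whether reads were lost or shared between them by the mapping was not tested.

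Kcnk3 and Kcnk9 encode the background potassium channels TASK-1 and TASK-3, and Kcnj5 encodes the inward rectifier Kir3.4, also called GIRK4. Among these potassium channels Kcnk3 had the strongest start site, and Kcnk9 and Kcnj5 had no TSS peak found in both libraries. The Kcnk3 peak at the TSS, position 30588170 of chromosome 5, had 2.59 in replicate 1 and 4.66 in replicate 2, the 65.5 and 57.8 percentiles of accessible genes. It was in both stricter lists, with lowest false discovery rates of 2.64e-10 and 1.20e-46. The peak also lies within 1 kb of a TSS of Gm9899, whose intron covers it, so it cannot be assigned to one gene. Replicate 1 had 0 footprints in its TSS peak, and replicate 2 had 10 in the 4 TSS peaks it called. No footprint was therefore found there in both libraries.

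Kcnk9 had a peak of 0.503 in replicate 1 alone, 52 bp wide and 193 bp from its only annotated TSS, at a lowest false discovery rate of 0.0227. In replicate 2 no position within 1 kb of this TSS was listed below 0.05. For Kcnj5 neither library had a peak at any of 3 closely spaced annotated TSSs. The list of replicate 2 did hold 17 bp below 0.05 near the 5′ most of these, the lowest at 0.0385, and that of replicate 1 held none. Over all genes, 63.3% in replicate 1 and 67.5% in replicate 2 had a position listed below 0.05 within 1 kb of a TSS.

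Cacna1d encodes the L-type channel Cav1.3 and Cacna1h the T-type channel Cav3.2. Both had TSS peaks in both libraries, Cacna1h at the 5′ end of the gene and Cacna1d at start sites inside it. At Cacna1h, 3 peaks near the 5′ end were found in both libraries. The strongest, the promoter sequence shown above, was centred 298 bp before the TSS at position 25433783 of chromosome 17, with signals of 1.42 in replicate 1 and 3.90 in replicate 2, the 30.05 and 48.4 percentiles. The peak over the TSS itself had 0.955 and 1.98, and one 0.870 kb downstream had 0.750 and 1.32. Footprints of the upstream peak coincided at 31 bases, those in capitals, and the 29 bp footprint of replicate 2 at positions 25434069 to 25434097 spans a pair of replicate 1 footprints of 16 and 7 bp. The peaks over and after the TSS had no footprint that overlapped between the libraries.

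Cacna1d is 451.5 kb long and has 10 annotated TSSs. Accessible sites in both libraries lay near the start sites around position 30352991 of chromosome 14, which protein-coding transcripts use, far inside the gene. A peak at chr14:30352181-30352420, 139 kb from the 5′ most TSS, had 0.691 in replicate 1 and 1.28 in replicate 2, and one at chr14:30353661-30353760 had 0.708 and 0.783. Each was in the stricter list of 1 library alone, the first in replicate 2 and the second in replicate 1. The strongest TSS peaks stood at the 8.47 and 14.5 percentiles of accessible genes, low among the 6. At the protein-coding TSS nearest the 5′ end, position 30491156, replicate 2 alone had a peak, with 0.563, centred 977 bp away. No peak lay within 1 kb of the 5′ most TSS, position 30491455.

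Atp2b3 encodes PMCA3, a plasma membrane calcium pump. Its TSS peaks were weak in both libraries and lay at different places. Replicate 1 had peaks of 0.614, centred 290 bp before the TSS at position 73503086 of the X chromosome, and of 0.529, centred 284 bp after it. Replicate 2 had a peak of 0.792 centred 182 bp after the TSS, which overlapped neither. None was in a stricter list, and the lowest false discovery rates were 0.0136 and 0.0117. When the peaks of the libraries had to overlap each other, 5 of the 9 genes and 60.8% of all genes had an accessible start site, and Atp2b3 was the gene lost.

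Clcn2 encodes ClC-2, a chloride channel that opens at hyperpolarised potentials. It had the strongest TSS peak of the 9 genes in each library. At the 5′ most TSS, position 20717746 of chromosome 16, the signal was 3.40 in replicate 1 and 9.76 in replicate 2, the 84.8 and 94.8 percentiles of accessible genes. No protein-coding transcript of Clcn2 starts at this TSS. A TSS of Polr2h, which encodes an RNA polymerase subunit, lies within 1 kb. In replicate 2 the peak centre is 14 bp from the Polr2h TSS and 95 bp from that of Clcn2. This peak therefore cannot be assigned to one gene. At the start sites used by protein-coding transcripts of Clcn2, between positions 20716111 and 20716117, a separate peak had 1.85 and 3.18, in both stricter lists. These values lie below the 2.59 and 4.66 of Kcnk3. The shared peak at the 5′ most TSS held 3 footprints found in both libraries, and the one at the coding start sites held 0, although each library had 4 footprints in it.

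Start sites rich in CpG dinucleotides were mostly accessible in this tissue, and Kcnk9 was an exception. Observed over expected CpG content was taken within 500 bp of the 5′ most TSS and ranked over all protein-coding genes. Kcnk9 stood at the 92.7 percentile, in the top decile of genes, of which 97.2% had a peak at this TSS in both libraries. Cacna1h (82.2 percentile), Kcnk3 (79.6) and Clcn2 (69.8) lay in deciles of which 95.6%, 93.9% and 91.8% were accessible, and each was accessible itself. Agtr1a, Atp2b3, Kcnj5 and Cacna1d lay in the same decile, of which 64.0% were accessible, and of these Agtr1a and Atp2b3 had a peak at the 5′ most TSS in both libraries. Agtr1b had the lowest rank, 34.3, in a decile of which 27.8% were accessible.

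**Figure D2:**
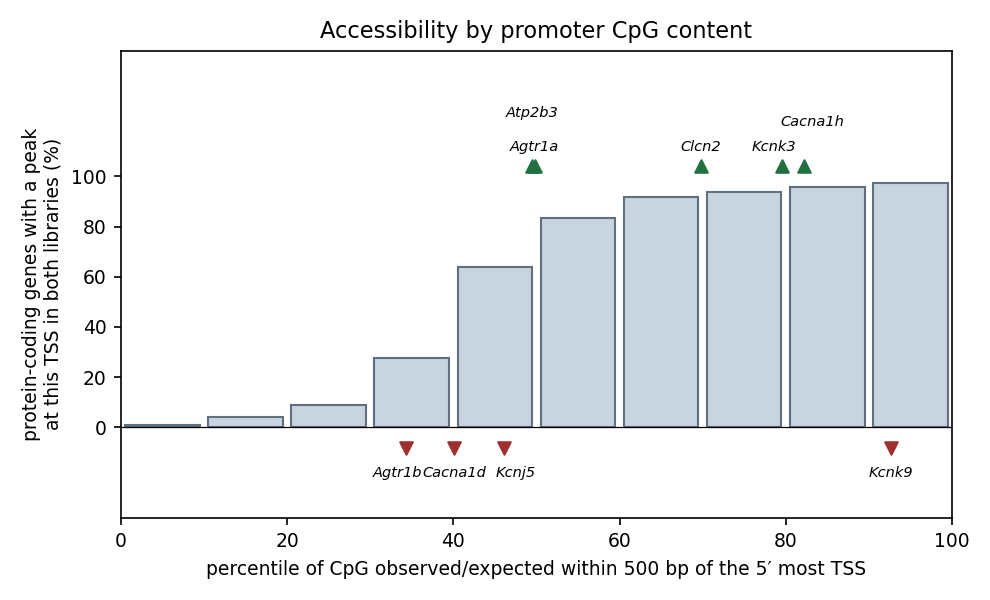
Bars give the percentage of protein-coding genes with a peak at the 5′ most TSS in both libraries, by decile of CpG observed over expected content. Triangles mark the 9 genes at their percentile, green and above the bars where such a peak was found in both libraries and red and below the axis where it was not; Kcnk9 is the red triangle in the top decile.

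Away from the start sites, 38 peaks inside or within 50 kb of the 9 genes were found in both libraries. A peak counted as distal when its centre lay over 1 kb from every TSS of the gene, and as shared when a replicate 2 peak overlapped a replicate 1 peak by at least 1 bp. At least 1 shared distal peak was present at 8 of the 9 genes, Agtr1a being the exception, against 79.8% of all protein-coding genes. Clcn2 had 10, Cacna1h 7, Kcnk3 6, Cacna1d 6, Kcnk9 4, Kcnj5 2, Atp2b3 2 and Agtr1b 1. The median over the 9 genes was 4, against 3 over all genes. Of the 38 peaks, 12 lay inside the gene, 12 lay at another gene's TSS (within 1 kb), and 16 had the described gene as the owner of the nearest protein-coding TSS.

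**Figure D3:**
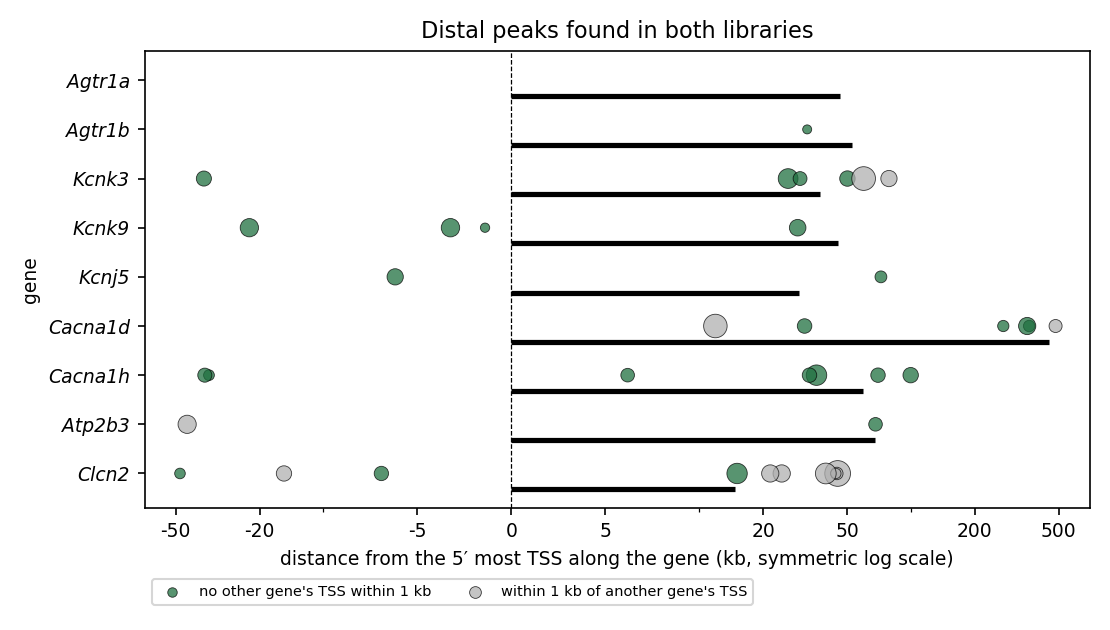
Distal peaks found in both libraries, placed by distance from the 5′ most TSS along the gene (kb, symmetric log scale), with circle area proportional to the mean deposited signal and black bars for the gene body. Grey circles lie 1 kb or less from another gene's TSS; they include 7 of the 10 at Clcn2, while none of the 4 at Kcnk9 is grey and the row of Agtr1a is empty.

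Agtr1a, with an accessible start site, had no distal peak in both libraries, and replicate 2 alone had a pair in an intron. The stronger, 22520 bp from the TSS at chr13:30358881-30359040, had 1.33 and was in the stricter list, and the other, 24853 bp from the TSS, had 0.897. Replicate 1 had 1 distal peak, 5174 bp upstream, with 0.435. Agtr1b, without an accessible start site in both libraries, had 1 shared distal peak, in an intron 32.3 kb from the TSS, with 0.409 in replicate 1 and 0.844 in replicate 2. This peak was in the stricter list of replicate 2 alone, and its replicate 1 signal stood at the 7.73 percentile of that library's peaks. Of 1968 genes of like length (within a factor of 1.25), 88.0% had at least 1 shared distal peak.

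Kcnk9 differed from Agtr1a in its arrangement, with no accessible start site in both libraries and 4 shared distal peaks, each nearer to its own TSS than to any other protein-coding TSS. The highest in mean signal lay 3.24 kb upstream, with 1.64 in replicate 1 and 3.57 in replicate 2. The one 22.4 kb upstream, shown above, had 1.14 and 4.00, a ratio of 3.50 that stood at the 95.6 percentile of ratios over all 1-to-1 peaks. An intronic peak 29.1 kb downstream, also shown above, had 1.12 and 3.11. The peak nearest to the TSS, 1.40 kb upstream, had 0.537 and 0.800 and was the one of the 4 absent from both stricter lists. Of 2109 genes of like length, 42.9% had at least 4 shared distal peaks.

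Kcnj5 had 2 shared distal peaks and, as said, no TSS peak. Of 2562 genes of like length, 73.8% had at least as many. The one 6.18 kb upstream, shown above, lies in an intron of Gm39317 and had 0.955 in replicate 1 and 3.12 in replicate 2, in both stricter lists. Its ratio of 3.27 stood at the 93.2 percentile. The other, 72.1 kb along the gene and past its 3′ end, had 0.810 and 1.35 and lay nearest to the TSS of Arhgap32. It was in the stricter list of replicate 2 alone.

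Kcnk3 had 6 shared distal peaks, of which 2 were intronic and 2 lay at start sites of other genes. The highest in mean signal, 59.7 kb from the TSS, had 3.27 in replicate 1 and 5.37 in replicate 2 and lies at a TSS of Slc35f6. The intronic peak nearest to the start, 26.3 kb from it, had 1.75 and 4.24 and was in both stricter lists, and that at 29.9 kb had 0.989 and 1.97 and was in neither. Of 2349 genes of like length, 24.2% had at least 6.

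Cacna1h had 7 shared distal peaks, none at another gene's TSS, and 15.96% of 1805 genes of like length had at least as many. The strongest, in an intron 35.8 kb from the TSS, had 1.97 in replicate 1 and 4.47 in replicate 2. The peak with a REST match shown above lay close by in the same gene, 33.1 kb from the TSS, with 0.930 and 2.30. The intronic peak nearest to the TSS, at 6.18 kb, had 0.947 and 1.91. This peak and the one with the REST match were in the stricter list of replicate 2 alone. The other 4 lay outside the gene, nearer to start sites of Tekt4, Tpsab1 and Tpsb2.

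Cacna1d had 5 of its 6 shared distal peaks inside the gene. The strongest, 2.72 in replicate 1 and 5.78 in replicate 2, lies 11.9 kb from the 5′ most TSS at a start site of Dcp1a, a gene that overlaps Cacna1d. The strongest of those with no other gene's TSS nearby was the intronic peak shown above, 354.3 kb from the 5′ most TSS, with 1.53 and 3.03. The median of 242 genes of like length was 2, and 23.1% had at least 6.

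Atp2b3 had 2 shared distal peaks, and 72.3% of 1676 genes of like length had at least as many. The one 44.1 kb upstream, with 1.46 in replicate 1 and 3.63 in replicate 2, lies at a TSS of Haus7. The other lies at the 3′ end of the gene, 67.99 kb from the TSS, at chrX:73570981-73571160, with 0.623 in replicate 1 and 2.23 in replicate 2, beside 0.614 and 0.792 at the start site. Its ratio of 3.57 was at the 96.2 percentile, and it was in the stricter list of replicate 2 alone. Clcn2, with 7 of its 10 shared distal peaks at start sites of other genes, had the most, and 8.83% of 2606 genes of like length had at least 10. The highest in mean signal, 45.0 kb away with 2.86 and 7.31, was at a TSS of Eif4g1. One peak, 15.1 kb from the 5′ most TSS and past the 3′ end of Clcn2, had 1.65 and 4.73 and was the only one of its 10 with Clcn2 as the nearest protein-coding TSS. The peak nearest to the start, 6.92 kb upstream, had 1.30 and 1.87 and lies in Thpo.

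REST and CTCF letters stood in 8 of the 38 shared distal peaks. Within 200 bp windows at the peak centres, searched on both strands, the CTCF letters matched in 6 of 38, against 14.1% of 17103 windows of shared peaks over 1 kb from the TSS of any gene. All these matches lay in the 26 of the 38 peaks that were likewise away from every gene's TSS, where their share was 23.1%. The REST letters matched in 2 of 38, the sequences from Kcnk9 and Cacna1h, against 0.889% of the 17103 windows. Both of these peaks were among the 26, a share of 7.69%. Each match is given below as spelled by the motif, with the fixed letters in capitals; the Kcnk9 upstream peak held 2 REST matches.
Kcnk9 REST, positions 72568661 to 72568675 of chromosome 15: CAGCACCgaGGACAG
Kcnk9 REST, positions 72568709 to 72568723 of chromosome 15: CAGCACCgtGGACAG
Cacna1h REST, positions 25400638 to 25400652 of chromosome 17: CAGCACCacGGACAG
Kcnk3 CTCF, positions 30638233 to 30638244 of chromosome 5: CCACcAGatGGC
Kcnk9 CTCF, positions 72549571 to 72549582 of chromosome 15: CCACcAGggGGC
Kcnj5 CTCF, positions 32350534 to 32350545 of chromosome 9: CCACgAGatGGC
Cacna1h CTCF, positions 25398009 to 25398020 of chromosome 17: CCACcAGgtGGC
Clcn2 CTCF, positions 20702675 to 20702686 of chromosome 16: CCACaAGggGGC
Clcn2 CTCF, positions 20765356 to 20765367 of chromosome 16: CCACcAGggGGC

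Of these 9 matches, 8 overlapped a footprint in both libraries. All 6 CTCF matches overlapped a footprint in both libraries, by 8 to 12 of their 12 bases, and 86.3% of CTCF matches did so over all shared distal peaks. Of the 3 REST matches, that of Cacna1h lay in footprints at 12 of 15 bases in replicate 1 and all 15 in replicate 2. The Kcnk9 match nearer to the gene lay outside footprints in replicate 1 and in one at 7 bases in replicate 2. The other Kcnk9 match shared 2 bases with a 31 bp footprint of replicate 1 and lay whole inside a 49 bp footprint of replicate 2. Over all shared distal peaks, 86.2% of REST matches overlapped a footprint in both libraries.

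The other 11 sets of letters are given by their count in the 38 distal windows, with the share over the 17103 windows in parentheses. Those 17103 windows hold no peak within 1 kb of any TSS, whereas 12 of the 38 lie at another gene's TSS. TCAAGGTCA, bound by Nr5a1, the steroidogenic factor, matched 1 of 38 distal windows, the Cacna1h peak at 6.18 kb, outside footprints, against 0.509% of all such windows. TGACGTCA, the cAMP response element, matched 1 (0.491%), at Clcn2, TGACG, its short form, 8 (10.5%) and AAAGGTCA, bound by Nr4a factors, 0 (1.02%). TGANTCA of AP-1 matched 4 (9.44%), the steroid receptor letters GNACA and TGTNC, 3 bases apart, 0 (0.544%), GGGCGG of SP and KLF factors 13 (14.6%) and CCAAT of NFY 7 (21.6%). The NRF1 motif matched 0 (0.170%), CANNTG, the E-box, 26 (68.4%) and AGATAA of GATA factors 2 (6.00%). GGGCGG thus stood in 34.2% of the 38 windows and TGACG in 21.1%, both above the share over the 17103 windows. In the 26 peaks away from every gene's TSS, GGGCGG matched in 4 (15.4%) and TGACG in 3 (11.5%). In the 12 at another gene's TSS, they matched in 9 (75%) and 5 (41.7%), beside 56.8% and 22.3% of 22163 promoter windows. TGANTCA matched in 1 of the 26 (3.85%) and 3 of the 12 (25%), beside 2.85% of promoter windows. The TGACGTCA match was in 1 of the 12 and in 0 of the 26, beside 2.26% of promoter windows. In the 10 windows of shared TSS peaks, GGGCGG matched in 5, against those 56.8%, and CANNTG in 6, against 46.4%. TGANTCA and CCAAT matched in 1 each, against 2.85% and 24.6%, and the other 9 motifs in 0. The shorter letters can lie within longer ones, as TGACG does in TGACGTCA and AGGTCA in both nuclear receptor motifs.

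Many of the distal peaks called in replicate 2 alone were weak and closely spaced. A run was defined, after the data were seen, as at least 5 neighbouring peaks without a counterpart in the other library, each below a signal of 0.5 and at most 1 kb from the next. Replicate 2 had 628 runs holding 6.41% of its peaks, of which 73.5% were also in its stricter list, and replicate 1 had 35 runs holding 0.682%. Of the 9 genes, Kcnk3, Cacna1d, Atp2b3 and Clcn2 had such a run of replicate 2 within 50 kb, against 6.25% of all genes. At Kcnk3, 5 runs held 42 of 63 distal peaks of replicate 2, one of them 20 peaks over 8.90 kb at chr5:30552481-30561381. At Cacna1d 1 run held 20 of 41, at Clcn2 14 of 30 and at Atp2b3 5 of 12. In replicate 1 no run lay at these genes, and in 7 of the 8 intervals it listed no position below a false discovery rate of 0.05. The cause of the runs was not tested.

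**Figure D4:**
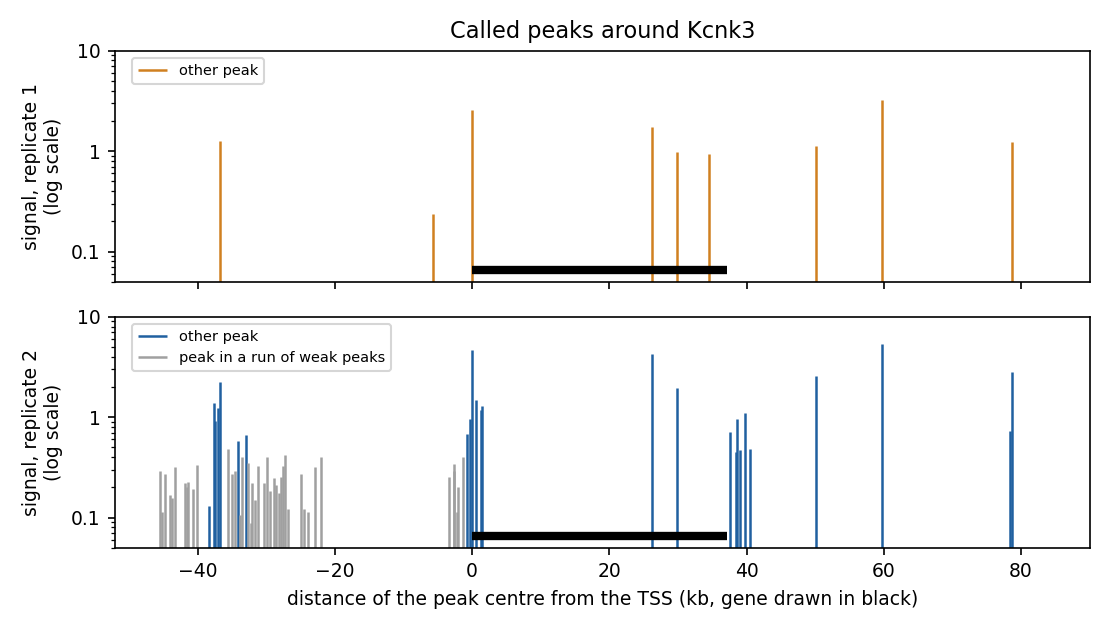
Signal (log scale) of each called peak around Kcnk3 by distance from its TSS, replicate 1 above and replicate 2 below, with the gene as a black bar. Grey lines in the lower panel are the 42 peaks of replicate 2 that lie in runs of weak peaks, upstream of the start site; the 6 distal peaks found in both libraries stand above them.

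Among other genes of the pathway, 13 of 18 genes of angiotensin and Gq signalling had a TSS peak in both libraries, led in mean signal by Gna11, a Gq-class subunit, with 4.70 in replicate 1 and 13.6 in replicate 2. Rgs2, which limits Gq signalling, had 3.93 and 8.51, and Itpr1, a calcium release channel, had 3.04 and 6.05. Both values of these 3 genes were above those of Agtr1a. Among those with no TSS peak in either library were the receptors Agtr2 and Mas1, the precursor Agt and the protease Ren1.

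Of 14 other potassium and chloride channel genes, 9 had an accessible start site in both libraries. Lrrc8a, a volume-regulated anion channel subunit, had 5.92 in replicate 1 and 12.9 in replicate 2, Clcn3 had 2.95 and 8.17, and Kcnk5, the background channel TASK-2, had 2.25 and 7.32. Kcnq1 and Clcn1 had none. Kcnk5 thus stood above Kcnk3 in replicate 2 and below it in replicate 1.

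Of 23 other calcium channels, calcium pumps and sodium pumps, 20 had one, led by the sodium pump subunit Atp1b3 with 4.88 in replicate 1 and 14.3 in replicate 2. Atp2b4, the plasma membrane calcium pump PMCA4, had 3.88 and 9.27. Atp2a3, a pump of the endoplasmic reticulum, had none. Atp2b4 exceeded its paralog Atp2b3 in each library.

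Of 19 calcium sensors and effectors, 18 had one. Calm3 had 4.57 in replicate 1 and 9.18 in replicate 2, Calm2 had 3.68 and 10.0, and the transcription factor gene Creb1 had 4.78 and 8.21. The remaining gene was Cyp11b2, with a peak of 0.298 in replicate 1 alone; it has a close paralog, Cyp11b1, so this value is uncertain. Against 61.3% of all genes, the shares of the 4 lists were 72.2%, 64.3%, 87.0% and 94.7% in the order given. Their median signals over accessible members in replicate 1 were 2.33, 2.40, 1.70 and 2.69, beside 2.11 over all accessible genes. In replicate 2 these medians were 4.58, 5.09, 4.26 and 6.23, beside 4.33.

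Markers of the cells that could contribute these peaks were read in the same way. TSS peaks in both libraries were present at 6 of 10 cortex markers, 4 of 7 zona glomerulosa markers, 5 of 9 chromaffin and sympathetic markers, 4 of 5 neuron markers and 3 of 7 endothelial and vessel wall markers. Of all protein-coding genes, 61.3% had such peaks. The neuron list was above this share and the other marker lists were below it, with the cortex list close to it. With only 5 to 10 genes each, the lists are too short to rank the cell types by these shares. At accessible cortex markers the signal was 0.699 to 2.51 in replicate 1 and 0.800 to 6.597 in replicate 2, with 1.77 and 5.07 at Nr5a1 and 1.25 and 3.54 at Cyp11a1. At zona glomerulosa markers it was 0.520 to 1.48 and 0.809 to 3.10, with 1.48 and 3.10 at Wnt4. At chromaffin and sympathetic markers it was 0.836 to 4.25 and 1.05 to 10.4, with 2.85 and 8.12 at Chgb, 1.48 and 4.45 at Chga and the highest values at Slc18a1. At neuron markers it was 0.529 to 2.12 and 0.501 to 5.62, and at endothelial and vessel wall markers 0.520 to 1.24 and 0.660 to 3.89. Markers without a TSS peak in either library included Hsd3b1 and Cyp11b1 of the cortex, Shh of the zona glomerulosa, Th, Dbh and Pnmt of chromaffin cells and Pecam1 of endothelium. Which cells carried the peaks of the 9 genes was not tested.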

How the data were processed

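DNase-seq data of 2 libraries were read from tables that the authors deposited on assembly mm10, per the file headers and labels. Each library had 2 peak lists with 1 signal value per peak as deposited by the authors, whose scaling is not stated. It also had a list of false discovery rates (adjusted p-values for the rate of cuts, deposited below 0.05 only) and a list of footprints with the constant p-value 0.01, taken as the authors' threshold. Tools, filters and read depth are not stated in any source used here, and each list belongs to 1 sample. The longer peak list was the main set. Alleles were not separated.

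From these, TSS peaks (overlap of at least 1 bp with the 1 kb to either side of any TSS), distal peaks, overlaps between libraries, CpG content and letter matches were computed on GRCm38.p6 with GENCODE M21 in Python 3.11.15 (pandas 2.3.3, numpy 2.4.6, pysam 0.24.0). Footprints and matches counted as overlapping from 1 bp. Genes of like length were within a factor of 1.25 of the gene's length. Coordinates are 1-based. The assignment of peaks was tested on simulated peak lists with known answers.

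The 9 genes, the pathway and marker lists and the alternatives were chosen with earlier results of these data known. Named were all 9 genes, and per pathway list the 3 with the highest mean TSS signal and those with no TSS peak; some genes under this rule are not reported here. Per gene, the shared distal peak with the highest mean signal and the one nearest to the 5′ most TSS were named. Other peaks, the runs of weak peaks and TATAAA were singled out after their values were seen. No comparison between groups and no test was possible with 1 group.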

Additional observations from a re-analysis of the deposited data

How the results depend on the processing

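The count of genes with a TSS peak in both libraries, 6, ranged from 5 to 8 over 7 alternatives, among them 5 with the stricter lists and 8 without replicate 2, which adds Agtr1b and Kcnk9. The count at the 5′ most TSS, 5, ranged from 4 to 7 over 6. The 38 shared distal peaks became 21 with the stricter lists and 66 with a flank of 100 kb, and 26 to 32 with a flank of 25 kb, 50% reciprocal overlap or peaks at other genes' TSSs left out. Leaving out each library in turn gave 42 (replicate 1 alone) and 169 (replicate 2 alone), and replicate 2 alone without runs of weak peaks, an alternative chosen after seeing the data, gave 88. The 10 TSS footprints found in both libraries became 32 in replicate 1 alone and 40 in replicate 2 alone, which drop the requirement to be shared, and 8 to 11 with other windows, lists or overlaps. Distal counts therefore depend on the list, the flank and the library. No paired analysis was possible because there was 1 group. Read depth is unknown, so that a peak called in 1 library alone, as at Agtr1b and Kcnk9, cannot be told apart from one missed in the other.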

Other observations

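Long footprints lay in distal peaks of Kcnk9 and were noted after the values were seen. Of its 4 shared distal peaks, 3 held a footprint of at least 28 bp in both libraries. Of single footprints over the whole library, 3.73% in replicate 1 and 5.99% in replicate 2 reached this width. These are shares of footprints and not of peaks. The share of all shared distal peaks that hold such a footprint was not computed, so how unusual Kcnk9 is was not tested. That of the peak 3.24 kb upstream was 28 bp wide in replicate 1 and 29 bp in replicate 2 and covered the CTCF match. That of the peak 22.4 kb upstream was 31 bp and 49 bp wide. It shared 2 of the 15 bases of a REST match in replicate 1 and covered all 15 in replicate 2. The one in the intronic peak was 29 bp wide in replicate 1 and 28 bp in replicate 2. It began at the same base, position 72517220 of chromosome 15, in both libraries. None of the 13 motifs matched it, but each was searched by its fixed letters alone, so variant spellings would have been missed.

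Within shared peaks of the 9 genes, 6 footprints had the same bounds in both libraries, which is 5.83% of 103 in replicate 1 and 5.45% of 110 in replicate 2. Over all footprints, 1.82% of those in replicate 1 and 1.26% of those in replicate 2 had such a counterpart, a count that is not limited to shared peaks. A pair of the 6 lay in an intron of Tekt4, 36.3 kb upstream of Cacna1h, at positions 25470098 to 25470107 and 25470109 to 25470127 of chromosome 17. The longest, 20 bp, lay in a peak near Clcn2 at a TSS of Eif4g1, and the other 3, of 7 bp each, lay in peaks of Cacna1d, Cacna1h and Clcn2. Of the other genes described here, only Cacna1h had a shared peak with a footprint of 28 bp or more in both libraries, the 31 bp footprint over its CTCF match 35.8 kb from the TSS.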
